A study of Bos taurus with 6 samples.

Results

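The 5 genes described here belong to the growth hormone and insulin-like growth factor axis. They were chosen by gene identity, as a fixed list of Ensembl identifiers with a name given for each, out of the 27607 identifiers of a bovine count table. The list holds the ligands IGF1 (ENSBTAG00000011082) and IGF2 (ENSBTAG00000013066), the IGF receptors IGF1R (ENSBTAG00000021527) and IGF2R (ENSBTAG00000002402), and the growth hormone receptor GHR (ENSBTAG00000001335). The table itself carries no gene names, so the pairing of name and identifier was taken as given and was not checked against a second source.

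RNA sequencing compared fibro-adipogenic progenitors (FAPs), the interstitial cells of muscle from which intramuscular fat arises, with satellite cells (SCs), the myogenic stem cells. Both were isolated from semitendinosus muscle of Belgian Blue cattle, a double-muscled breed, and sorted as CD31-/CD45- cells, with CD29+/CD56- cells taken as FAPs and CD29+/CD56+ cells as SCs. The paper used male and female cattle of a range of ages and does not state which animals supplied these libraries. All 6 libraries, lettered A, B and C in each cell type, came from unperturbed cells. The paper places a culture of 72 h on collagen before sorting. Cells were cultured on collagen from 2000 cells per cm2, in Ham's F-10 with 20% serum, 5 ng per ml bFGF and 1% antibiotics. The paper gives these as general culture conditions and does not state how long after sorting the RNA was taken. It is not stated in the sources used here whether a letter stands for a donor animal or a culture, so that the spread between libraries may be technical, and p-values measure only that spread. Because other identifiers could not be paired with names, the labelled cell types were not checked against their markers.

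Growth hormone, made by the pituitary, acts through GHR, a cytokine-type receptor that signals by JAK2 and STAT5 and raises IGF1 transcription in liver and, locally, in muscle. IGF1 and IGF2 both signal through IGF1R, a receptor tyrosine kinase. IGF2R, which is also the cation-independent mannose 6-phosphate receptor, has no kinase domain. It carries IGF2 to lysosomes for degradation and sorts lysosomal enzymes. In muscle, locally made IGFs promote the proliferation and differentiation of myogenic cells.

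Transcripts of the 3 receptors were counted at least 1118 times in every library of both cell types, and those of the ligands at most 87 times in a library, numbers that are not divided by gene length and so do not rank the genes by level. Fitted levels of all 5 genes were lower in FAPs than in SCs, with the largest difference in IGF2 and the smallest in IGF1R, which did not pass the test. IGF2 was 8.31-fold higher in SCs and IGF1 was 2.05-fold higher, while the receptors differed by 1.604-fold (IGF2R), 1.25-fold (GHR) and 1.08-fold (IGF1R). The value for IGF2 rests on 11 counts in the FAP libraries together, and all of these sizes depend on how the libraries were scaled. SCs thus held the higher level of both ligand transcripts, and both cell types carried the receptor transcripts. The counts come from bulk cultures, in which fewer cells that transcribe a gene and less RNA per cell cannot be told apart.

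Levels are given as counts relative to the library size (CPM), on sizes adjusted with edgeR's TMM factors, and fold changes as log2 of FAPs minus SCs. Genes were called when the Benjamini-Hochberg false discovery rate (FDR), taken over all 14039 tested genes, was below 0.05, together with an absolute log2 fold change above 1. By these cutoffs 2 of the 5 genes, IGF1 and IGF2, were called, both lower in FAPs. Over all tested genes, 28.1% were called in either direction and 13.6% were called lower in FAPs. With the FDR alone, 4 of the 5 genes were lower in FAPs, against 36.5% of all tested genes. These counts include IGF2, which passed the filter on low counts through the SC libraries alone. Of the other 4 genes, 1 was called and 3 passed the FDR, all lower in FAPs. The FAP and SC libraries did not overlap for any of the 5 genes, with FAPs the lower group. This also counts IGF2, and the other 4 genes were apart in the same way. Among all tested genes, 38.0% were apart with FAPs lower. The median log2 fold change was -0.68 over the 5 genes, IGF2 included, and -0.03 over all tested genes.

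**Figure D1:**
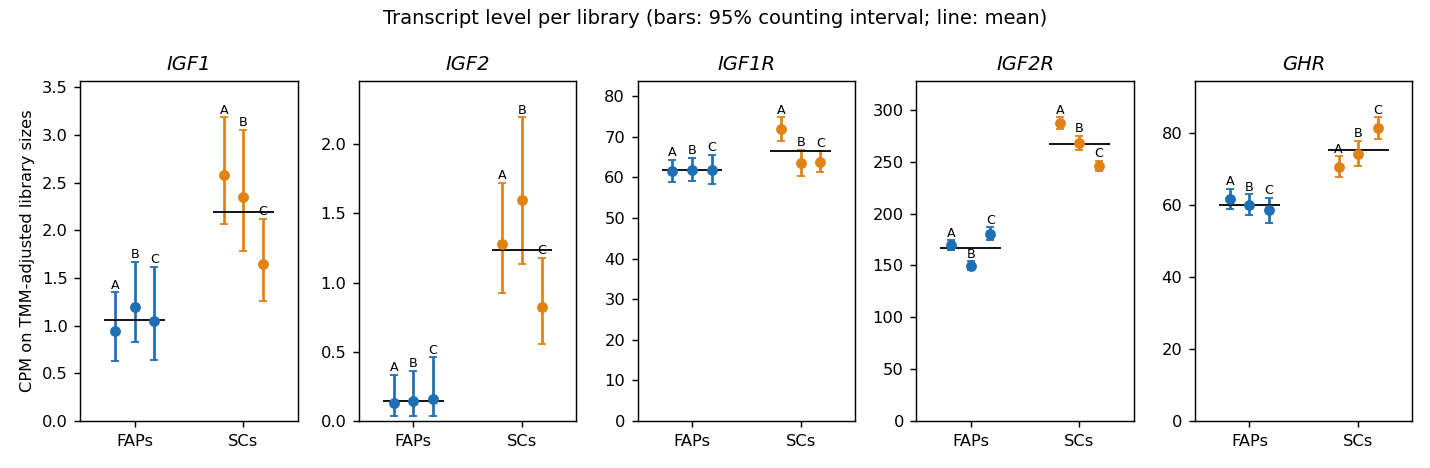
CPM on TMM-adjusted library sizes (vertical axes from 0, a scale for each gene) of the 5 genes in the 3 FAP (blue) and 3 SC (orange) libraries, with the 95% Poisson counting interval as bars, the mean as a line and the replicate letter above each point. Every SC library lies above every FAP library for each gene, widely for IGF2 (0.825 CPM in the lowest SC library against 0.157 in the highest FAP library) and by 1.03 times for IGF1R.

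The ligand IGF2, known for its rise during myogenic differentiation, showed the largest difference. It was counted 4 times in FAPs A, 4 times in FAPs B and 3 times in FAPs C. In SCs it was counted 43 (A), 38 (B) and 30 (C) times. IGF2 was therefore at the limit of detection in FAPs, where 3 counts, the smallest level taken as shown, correspond to 0.0971 to 0.157 CPM.

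On TMM-adjusted sizes, IGF2 stood at 0.129 (A), 0.141 (B) and 0.157 CPM (C) in FAPs. It stood at 1.28 (A), 1.598 (B) and 0.825 CPM (C) in SCs. The means were 0.142 ± 0.0139 CPM in FAPs and 1.23 ± 0.388 CPM in SCs (SD, n = 3), and the lowest SC library lay 5.25 times above the highest FAP library. The log2 fold change of IGF2 was -3.06 (standard error 0.390, 95% interval -3.91 to -2.20, edgeR quasi-likelihood fit, adjusted p = 1.83e-05).

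With the counts of each cell type pooled, 11 in FAPs and 111 in SCs, the ratio of SCs to FAPs was 8.43, with an exact 95% counting interval from 4.53 to 17.4. This interval covers counting error only, and its width comes mostly from the 11 counts in FAPs. Because IGF2 was tested only through its level in SCs, a gene this low in FAPs could enter the test in this direction alone, and its call and p-value are not independent of the filter. With no filter, among all 19162 genes with a count, the log2 fold change of IGF2 was -3.06 (edgeR quasi-likelihood fit, adjusted p = 1.89e-09). That fit used the same counts with another set of genes, so its smaller p gives no independent support for the call. A larger absolute log2 fold change than that of IGF2 was found in 8.03% of tested genes.

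The ligand IGF1, which mediates much of the action of growth hormone on growth, was counted more often in both cell types. Its counts were 29 (A), 34 (B) and 20 (C) in FAPs. In SCs they were 87 (A), 56 (B) and 60 (C). All FAP libraries lay above the 3-count limit, so that IGF1 transcripts were detected in both cell types.

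Adjusted for library size, IGF1 stood at 0.939 (A), 1.197 (B) and 1.05 CPM (C) in FAPs. It stood at 2.58 (A), 2.35 (B) and 1.65 CPM (C) in SCs. SCs C was the lowest SC library for IGF1, as it was for IGF2, and lay 1.38 times above FAPs B, the highest FAP library. The means of IGF1 were 1.06 ± 0.130 CPM in FAPs and 2.20 ± 0.486 CPM in SCs (SD, n = 3).

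The log2 fold change of IGF1 was -1.04 (standard error 0.224, 95% interval -1.53 to -0.55, edgeR quasi-likelihood fit, adjusted p = 0.00126). The direction was the same in all 19 alternative settings, but the interval spans the cutoff of -1, and IGF1 was past the cutoffs in 12 of them. The FDR alone and the test against a 2-fold change reuse the main fold change, so their direction was fixed. The setting with the FDR alone is among the 12, though it has no fold cutoff. Leaving out FAPs A, SCs A or SCs B ended the call, with log2 fold changes of -0.92, -0.88 and -0.99. A test against a 2-fold change gave an adjusted p of 0.74 for IGF1.

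**Figure D2:**
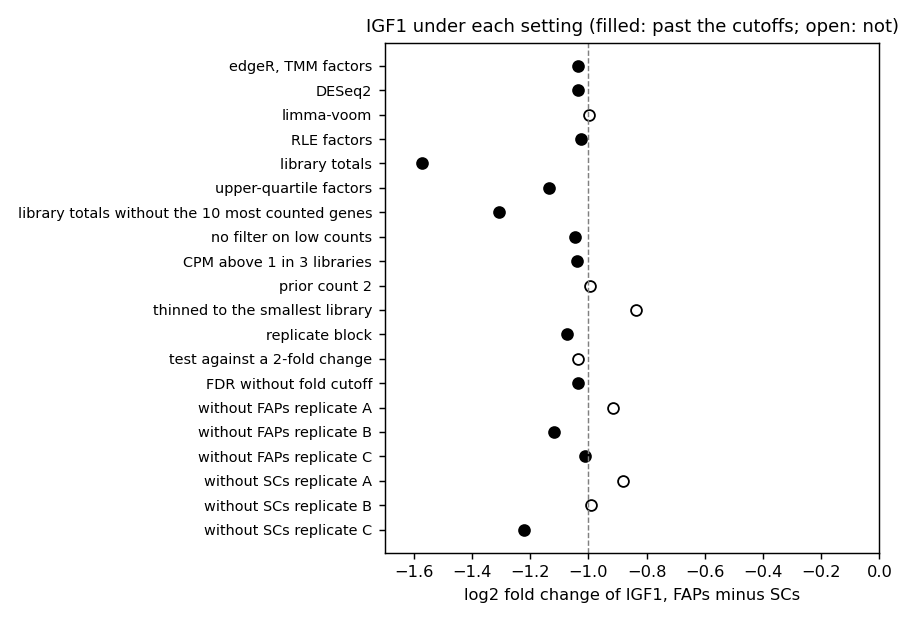
Log2 fold change of IGF1 (horizontal axis, FAPs minus SCs) under each setting. Filled points are past the cutoffs of that setting, open points are not, and a dashed line marks the cutoff of -1. All values are below 0, from -1.57 with library totals to -0.84 with counts thinned to the smallest library, and they lie on both sides of the cutoff.

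Among the receptors, IGF2R showed the largest difference. It stood at 169 (A), 150 (B) and 181 CPM (C) in FAPs, from 3450 to 5236 counts. In SCs it stood at 287 (A), 268 (B) and 246 CPM (C), from 6383 to 9671 counts. FAPs B was the lowest library and SCs A the highest, and the groups were 1.36 times apart at their nearest libraries.

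The means of IGF2R were 166.6 ± 15.8 CPM in FAPs and 267 ± 20.7 CPM in SCs (SD, n = 3). Its log2 fold change was -0.68 (standard error 0.0807, 95% interval -0.86 to -0.51, edgeR quasi-likelihood fit, adjusted p = 9.31e-06). The difference was larger than the spread between replicates, but IGF2R was not called, because it lay within the fold change cutoff. When libraries were scaled by their totals alone, the log2 fold change of IGF2R was -1.22 and the gene was called, as were 36.2% of all tested genes.

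GHR, the receptor at the head of the axis, differed less. It stood at 61.8 (A), 60.1 (B) and 58.6 CPM (C) in FAPs. In SCs it stood at 70.8 (A), 74.3 (B) and 81.5 CPM (C). The FAP libraries lay close together, and SCs C, the lowest SC library for both ligands, was the highest for GHR.

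The means of GHR were 60.2 ± 1.63 CPM in FAPs and 75.5 ± 5.46 CPM in SCs (SD, n = 3). Its log2 fold change of -0.33 (standard error 0.0691, 95% interval -0.48 to -0.18) passed the FDR (edgeR quasi-likelihood fit, adjusted p = 0.00106) and not the fold change cutoff. GHR transcripts were therefore present in both cell types, at a level 1.25-fold higher in SCs (95% interval 1.13 to 1.39).

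IGF1R, the receptor through which both ligands signal, was the gene with the smallest difference. It stood at 61.5 (A), 61.9 (B) and 61.9 CPM (C) in FAPs. In SCs it stood at 71.8 (A), 63.5 (B) and 63.8 CPM (C). SCs A stood above the other SC libraries, and SCs B lay only 1.03 times above the highest FAP library.

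The means of IGF1R were 61.8 ± 0.248 CPM in FAPs and 66.4 ± 4.70 CPM in SCs (SD, n = 3). The log2 fold change was -0.11 (standard error 0.0676), with a 95% interval from -0.25 to 0.04 and an adjusted p of 0.181 (edgeR). A difference in IGF1R was thus not shown with TMM factors, and the interval allows a level in SCs between 0.971 and 1.19 times that of FAPs. Of all tested genes, 87.3% had a larger absolute log2 fold change.

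**Figure D3:**
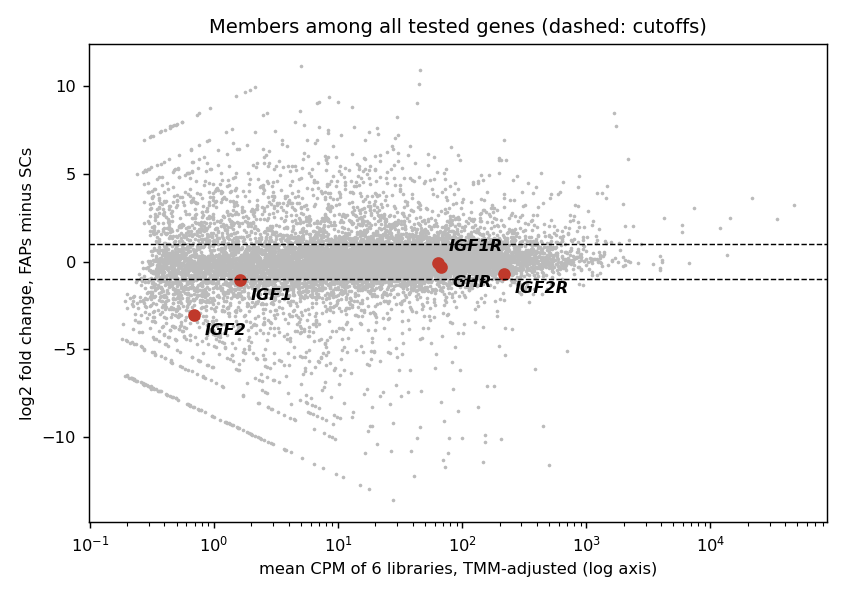
Log2 fold change (vertical axis, FAPs minus SCs) against the mean CPM of the 6 libraries (log axis) for all 14039 tested genes in grey and the 5 genes in red, with dashed lines at the cutoffs of 1 and -1. IGF2 (-3.06) and IGF1 (-1.04) lie below the lower cutoff and the 3 receptors lie between the cutoffs; CPM are not divided by gene length, so positions along the horizontal axis do not rank the genes by level.

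The spread between replicates was set beside counting error. The SD between replicates, relative to the mean, was 9.46% in FAPs and 7.74% in SCs for IGF2R, where counting error alone gives 1.56% and 1.11%. For IGF1R it was 0.401% in FAPs, below the 2.55% of counting error, and 7.08% in SCs, above the 2.23% of counting error. For the ligands, counting error was large in itself. It came to 19.4% for IGF1 and 53.4% for IGF2 in FAPs, above the observed 12.2% and 9.77%, and to 12.4% and 16.7% in SCs, below the observed 22.1% and 31.5%.

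The size of every difference depended on the scaling of the libraries. The libraries held between 19666738 and 37791193 counts, and the 10 most counted genes took 22.5% to 24.0% of them in FAPs and 7.73% to 8.02% in SCs. TMM factors lay between 0.818 and 0.840 in FAPs and between 1.195 and 1.209 in SCs. With library totals alone, the median over all tested genes moved to -0.57 on the log2 scale, and those of the 5 genes moved with it, to -3.58 (IGF2), -1.57 (IGF1), -1.22 (IGF2R), -0.86 (GHR) and -0.64 (IGF1R).

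By the cutoffs, IGF2R was the gene whose call changed with the scaling. IGF1R was not called under any scaling, but its adjusted p in the edgeR fits was 0.181 with TMM factors, 0.221 with the size factors of DESeq2 (RLE), 0.0146 with upper-quartile factors, 0.000217 with library totals taken without the 10 most counted genes, and 1.76e-06 with library totals. A scaling shifts all genes by nearly the same amount, so that values relative to the median of all tested genes are nearly fixed by construction. With TMM factors these relative log2 fold changes were -3.02 (IGF2), -1.002 (IGF1), -0.65 (IGF2R), -0.29 (GHR) and -0.07 (IGF1R).

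**Figure D4:**
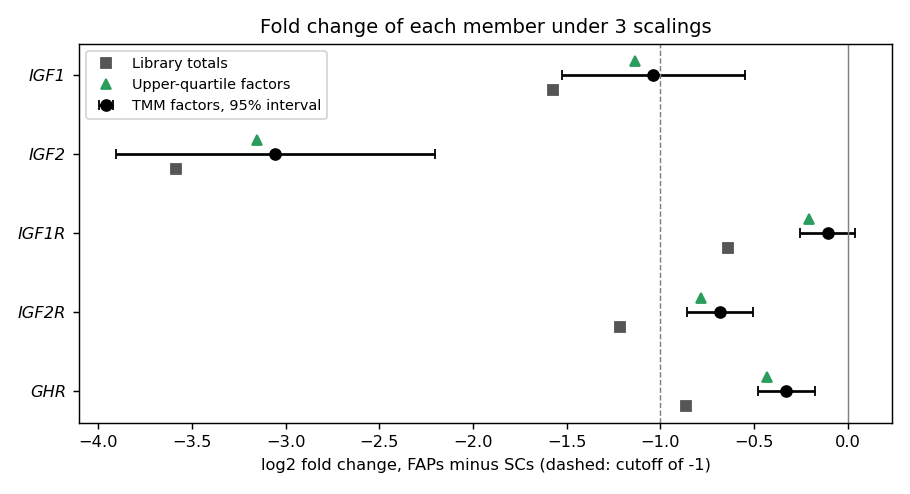
Log2 fold change (horizontal axis, FAPs minus SCs) of each gene with TMM factors (black, bars give the 95% interval), library totals (grey squares) and upper-quartile factors (green triangles), with a solid line at 0 and a dashed line at the cutoff of -1. All 15 values are below 0, a scaling shifts the 5 genes by nearly the same amount, and IGF2R passes the cutoff with library totals (-1.22) alone.

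The ratio of counts of a pair of genes within a library does not depend on this scaling. The ratios do not compare molecules, because gene lengths were not known. Their change from one cell type to the other is free of length only if both cell types use the same transcript forms of a gene, which was not tested. Ratios were compared for 3 pairs with exact two-sided permutation tests, for which the smallest p that 3 libraries against 3 allow is 0.1.

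For the receptors of IGF2, the counts of IGF2R per count of IGF1R were 2.76 (A), 2.42 (B) and 2.92 (C) in FAPs. In SCs they were 3.996 (A), 4.22 (B) and 3.85 (C). Every SC library lay above every FAP library. The log2 ratio differed by -0.58 (standard error 0.0892; exact permutation test, p = 0.1, adjusted p = 0.15 over the 3 pairs), and the FAP ratio was 0.669 of the SC ratio.

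For the ligands, the counts of IGF2 per count of IGF1 were 0.138 (A), 0.118 (B) and 0.150 (C) in FAPs. In SCs they were 0.494 (A), 0.679 (B) and 0.5 (C). The groups were again apart. The log2 ratio, with 0.5 added to each count, differed by -1.88 (standard error 0.186; exact permutation test, p = 0.1, adjusted p = 0.15 over the 3 pairs), and the FAP ratios rest on 3 or 4 counts of IGF2 each.

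GHR and IGF1R are the signalling receptors. The counts of GHR per count of IGF1R were 1.01 (A), 0.972 (B) and 0.946 (C) in FAPs. In SCs they were 0.985 (A), 1.17 (B) and 1.28 (C). SCs A lay among the FAP libraries, and the difference of -0.22 in the log2 ratio (standard error 0.113) was within the overlap of the groups (exact permutation test, p = 0.2, adjusted p = 0.2 over the 3 pairs). Its size rested on single libraries, at -0.14 without SCs C and -0.33 without SCs A.

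**Figure D5:**
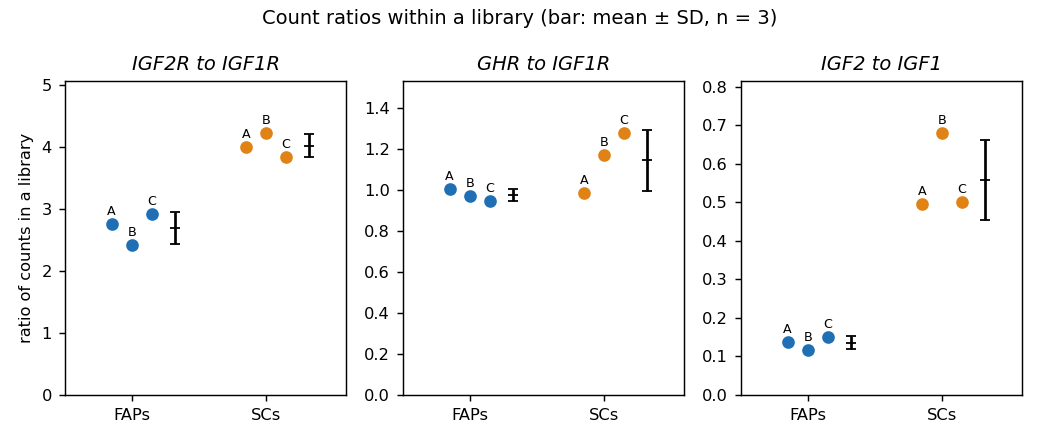
Ratio of counts within a library (vertical axes from 0) for 3 pairs of genes in FAPs (blue) and SCs (orange), with the replicate letter above each point and the mean ± SD (n = 3) in black. The ratios of IGF2R to IGF1R (2.698 ± 0.255 in FAPs and 4.02 ± 0.189 in SCs) and of IGF2 to IGF1 (0.135 ± 0.0163 and 0.558 ± 0.105) do not overlap, and those of GHR to IGF1R do.

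Other genes with the pattern of the ligands were sought among the 9507 genes whose mean reached 10 CPM in one cell type, by the root mean square distance of log2 CPM, centred on the mean of the gene, over the 6 libraries. Nearest to IGF2 was ENSBTAG00000012083, at a distance of 0.153, with means of 5.17 CPM in FAPs and 25.9 CPM in SCs. Its log2 fold change was -2.34, against -3.06 for IGF2. The 0.1 CPM added before log2 is close to the mean of IGF2 in FAPs (0.142 CPM), so this distance understates the contrast of IGF2. Some gene is always nearest, so these matches are description only. Nearest to IGF1 was ENSBTAG00000002211, at a distance of 0.0911, with means of 10.96 CPM in FAPs and 19.9 CPM in SCs, and the next gene lay at 0.109, little further away. The files do not pair these identifiers with names. No member was higher in FAPs, so that no gene was sought for that direction.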

How the data were processed

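The authors sequenced single-end reads of stranded poly(A) libraries, aligned them by STAR 2.7 to the bosTau9 assembly and tallied them by gene with featureCounts. The deposited table holds raw counts under Ensembl identifiers, 1 column per library, with 0 further sample columns. The settings for strand, multi-mapped and overlapping reads are not given in the sources used here, so reads of overlapping or antisense genes cannot be separated from those of the 5 genes.

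From these counts, filterByExpr (minimum count 10) kept 14039 genes, including all 5 members. TMM factors and the quasi-likelihood test of edgeR 4.0.16 (R 4.3.3; prior count 0.125) were applied, in a model of cell type alone, with Benjamini-Hochberg adjustment over tested genes. The cutoffs follow the study's methods, which used limma. limma 3.58.1 with voom and DESeq2 1.42.0 were run as alternatives, with other scalings, filters and thresholds, a prior count of 2, counts thinned in 1 random draw, a block for the replicate letter, and fits that each omitted a library. For distances, 0.1 CPM was added before log2. Poisson intervals of single libraries, the interval of pooled counts and detection limits cover counting error only. They treat reads as independent molecules, which reads without molecular identifiers are not. Intervals of the edgeR fold changes were built from the fold change and the F statistic of its test, which draws on the spread between replicates. They are approximate at low counts, where for IGF2 the interval came out narrower than that of pooled counts. Replicates differed by more than counting error (chi-square per degree of freedom of at least 4.10), so each was kept as a separate library.

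Members, lists and tests were chosen with earlier results of these data known. Named genes were the 5 members and, for up to 2 members in each direction, the gene nearest in pattern. Of the 27607 identifiers, 0 were found in the RefSeq gene table (ARS-UCD2.0, 37063 genes), so lists of IGF-binding proteins, signalling genes and cell type markers were not run. Gene lengths, positions and sequences of the build were not used here.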

Additional observations from a re-analysis of the deposited data

How the results depend on the processing

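The 5 log2 fold changes kept their direction in every alternative run that tested the gene, and there IGF2 and IGF1R kept their side of the cutoffs. Direction was fixed for the FDR alone and the test against a 2-fold change, which reuse the main fold changes. IGF2 was not tested with the filter of CPM above 1 in 3 libraries. IGF1 lost its call with limma-voom (-0.998), a prior count of 2 (-0.99), thinned counts (-0.84) and the test against a 2-fold change (-1.04, unchanged in size). IGF2R gained one with library totals (-1.22), and IGF2R (-0.68) and GHR (-0.33) passed on the FDR without a fold cutoff, which follows from dropping that cutoff. The number of the 5 genes called was 1 with limma-voom (28.001% of all tested genes called), thinning (27.5%), the test against a 2-fold change (21.9%) and the filter of CPM above 1 in 3 libraries (25.8%), which removed IGF2, and 4 without the fold cutoff, where 71.2% of all tested genes passed. With library totals, 3 of the 5 genes and 36.2% of all tested genes were called. With a library left out, the number called ran from 1 to 2. IGF1 then ran from -1.22 to -0.88, IGF2 from -3.29 to -2.86 and IGF1R from -0.14 to -0.05. IGF2R ran from -0.74 to -0.58 and GHR from -0.37 to -0.27. The share of all tested genes called ran from 28.1% to 28.8%. The differences in log2 ratio ran from -0.64 to -0.50 (IGF2R to IGF1R), -1.98 to -1.74 (IGF2 to IGF1) and -0.33 to -0.14 (GHR to IGF1R). Thinning moved the log2 ratio of IGF2 to IGF1 from -1.88 to -2.29. Causes of these shifts were not tested.

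The share of called genes that were higher in FAPs was 51.6% with TMM factors, 25.3% with library totals and 38.3% with library totals without the 10 most counted genes. Deviations of same-lettered libraries correlated at 0.322 (A), 0.0246 (B) and 0.260 (C) across genes, all positive. Whether the letters pair the libraries was not tested. The letters are not stated to be donors, so the main model held no block for them. With the replicate block, 2 of the 5 genes and 28.1% of all tested genes were called, with IGF1 at -1.07. Adjusted p in that edgeR fit was 0.000105 (IGF1), 9.13e-08 (IGF2), 1.57e-09 (IGF2R), 5.31e-05 (GHR) and 0.114 (IGF1R). Depth limits IGF2 in FAPs, at 3 or 4 counts in a library, and the size of its difference varied with the setting. The log2 fold change of IGF2 was -2.60 with a prior count of 2, -2.87 with limma-voom and -3.37 with thinned counts.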
